A study of Mus musculus with 8 samples.

Results

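The mitochondrial ribosomal protein genes were taken from the expression table by symbol, as every row named Mrpl or Mrps with a number and optional trailing letters. The rule found 77 genes among the 24062 in the table, all measured in all 8 libraries and all above the filter on low values used for testing. By the structures of the mammalian mitochondrial ribosome, 50 of them encode proteins of the large subunit and 26 proteins of the small subunit, and Mrps18a and Mrps30 count with the large subunit in spite of their symbols. The remaining gene, Mrps36, encodes a protein now assigned to the 2-oxoglutarate dehydrogenase complex of the citric acid cycle. The members lie on 17 chromosomes, with at most 10 on 1 chromosome.

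Mitochondria carry their own ribosomes, which translate the few membrane proteins of oxidative phosphorylation encoded by mitochondrial DNA. The ribosomal RNAs come from mitochondrial DNA, whereas every ribosomal protein is encoded in the nucleus, translated in the cytosol and imported. Part of the proteins have counterparts in bacterial ribosomes and part are found only in mitochondria.

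RNA sequencing compared wild type HC11 cells, a mammary epithelial line derived from the BALB/c line COMMA-1D, with wild type R1 embryonic stem cells (ESC) of a 129 background. Normal HC11 cells (N) were grown to confluence with EGF and insulin. Primed cells (P) received hydrocortisone and insulin for 48 h, and prolactin cells (PRL) were primed and then kept for 72 h in fresh medium with hydrocortisone, insulin and prolactin. ESC were maintained with LIF, 2i inhibitors and serum on a layer of fibroblast feeders, to partial confluence by the labels, and, by the methods of the study, were separated from the feeders onto new dishes before harvest. Each group holds 2 libraries. EGF, serum, hydrocortisone and time all differ between P and N, PRL differs from P in prolactin, medium change and time, and N differs from ESC in line, strain and medium, and these cannot be told apart. HC11 is a single line. Whether both libraries of a group came from separate cultures is not labelled, and the p-values cover only the spread between the libraries at hand.

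The FPKM (fragments per kilobase of exon, scaled to library depth) rest on 11938392 to 33916913 fragments per library, with both ESC libraries the shallowest, and a member was covered by 130 to 9703 fragments in a library. Markers followed the labels. The 6 stem cell markers ranged up to 1737 FPKM in ESC and reached at most 0.682 FPKM in HC11 libraries, whereas Krt5, a basal keratin, was at 0 in ESC and at 109.7 FPKM or more in HC11. Against N, Krt5 was lower in P (log2 fold change -2.36) and in PRL (-3.67). These were the lowest values of the 6 mammary epithelium markers, whereas the highest, those of Krt18, were 0.78 and 1.76. The medians of the 6 were -0.34 and -0.44. The 6 mammary epithelium markers summed to 198 and 227 FPKM in ESC and to 1232 FPKM or more in HC11. Their smallest difference between N and ESC was that of Cdh1, higher in N by 0.31 on the log2 scale. Of the milk genes, Csn2 (beta-casein) stood at 128 and 111 FPKM in PRL, and Csn1s1 was at 0 in both PRL libraries. The 12 fibroblast markers summed to 657 and 655 FPKM in N, to 1525 and 1431 in P, to 513 and 463 in PRL, and to 258 and 38.6 in ESC. Postn made up most of this sum in P, at 1175 and 1074 FPKM, while Thy1 reached at most 0.0252 FPKM in HC11, and the part of these markers in the results was not tested. In bulk RNA, fewer cells of a type and less RNA per cell cannot be told apart. The proliferation list summed to 1089 and 1053 FPKM in N, to 177 and 185 in P, to 99.4 and 103 in PRL, and to 1596 and 2105 in ESC, so this list was low in both treated states.

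The members together took a small part of the measured expression in all groups, and the treated HC11 cells had the lowest share. They made up 0.725% and 0.725% of the summed FPKM in N, 0.577% and 0.585% in P, 0.578% and 0.597% in PRL, and 0.685% and 0.688% in ESC. Both P libraries and both PRL libraries thus lay below both N and both ESC libraries, while P and PRL overlapped. The median member stood at 36.3 and 36.9 FPKM in N, at 25.7 and 25.6 in P, at 27.0 and 27.9 in PRL, and at 39.8 and 40.0 in ESC. For the 84 genes of the cytosolic ribosome, the share was 21.1% and 20.8% in N, 15.3% and 15.3% in P, 16.6% and 18.0% in PRL, and 22.2% and 25.3% in ESC. Both kinds of ribosomal protein gene were therefore lower in P and PRL than in N and ESC, on a scale that sums over genes. The ratio of large subunit to small subunit FPKM was 2.40 and 2.32 in N, 2.28 and 2.24 in P, 2.21 and 2.23 in PRL, and 2.03 and 2.02 in ESC. The ESC libraries had the lowest ratio, but this rank rests on 1 large subunit gene, Mrpl12. It was at 94.0 and 95.4 FPKM in ESC and at 201 to 334 FPKM in HC11.

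**Figure D1:**
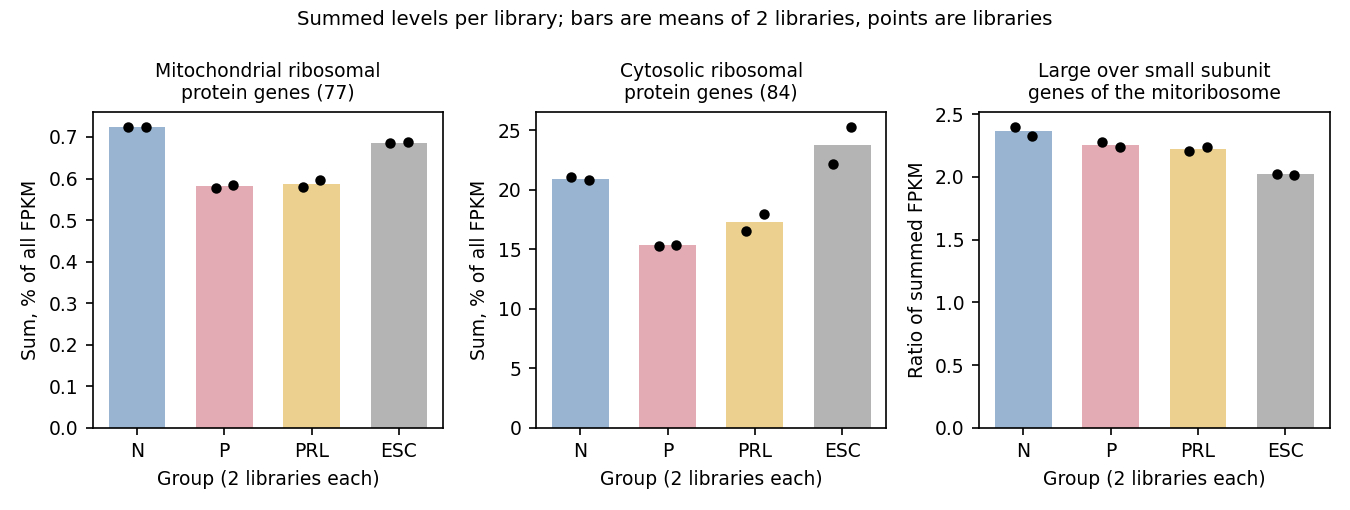
Summed levels by group (N, P, PRL and ESC), with bars for the mean of 2 libraries and points for the libraries. The panels show the percent of all FPKM in the 77 mitochondrial ribosomal protein genes, the percent in the 84 cytosolic ribosomal protein genes, and the ratio of large to small subunit FPKM. The mitochondrial share is lowest in P and PRL, from 0.577% to 0.597%. The ratio is lowest in ESC, a rank that rests on Mrpl12.

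Single members spanned a wide range of levels, although all but Mrps36 encode proteins of the same particle. Mrpl12, whose protein forms the flexible stalk that contacts translation factors, was the highest member in every HC11 library. It had 334 and 311 FPKM in N, 201 and 211 in P, 270 and 301 in PRL, and 94.0 and 95.4 in ESC, so that ESC lay far below every HC11 library. Mrpl12 made up 9.08% and 8.51% of the members' summed FPKM in N, 7.47% and 7.69% in P, 9.51% and 9.97% in PRL, and 2.82% and 2.70% in ESC. Without it the sums were 3342 and 3348 FPKM in N, 2489 and 2530 in P, 2564 and 2722 in PRL, and 3243 and 3441 in ESC, and P and PRL remained below N and ESC. By the mean over the groups, Mrps21 and Mrpl52 came next. Mrps21, a small subunit protein with a bacterial counterpart, had 132 and 159 FPKM in N, 135 and 138 in P, 154 and 164 in PRL, and 72.3 and 77.8 in ESC. N overlapped both P and PRL, while ESC lay below all HC11 libraries. Mrpl52, a large subunit protein found only in mitochondria, had 106 and 102 FPKM in N, 85.5 and 76.5 in P, 75.6 and 87.3 in PRL, and 125 and 126 in ESC. Here ESC was the highest group, the reverse of Mrpl12 and Mrps21.

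At the low end stood Mrpl1, Mrps25 and Mrpl41. Mrpl1, the protein of the mobile stalk by which tRNAs leave the ribosome, had 5.22 and 5.59 FPKM in N, 4.20 and 3.81 in P, 2.81 and 3.08 in PRL, and 10.0 and 10.1 in ESC. None of its groups overlapped, and ESC was the highest. Mrpl41, a large subunit protein found only in mitochondria, lay between 6.61 and 8.08 FPKM in all 8 libraries, and its groups overlapped except for P and PRL. The ratio of the highest to the lowest member was 63.9 and 55.7 in N, 47.9 and 55.2 in P, 96.0 and 97.8 in PRL, and 19.1 and 17.9 in ESC. The members were thus closer to each other in ESC than in any HC11 group. By group means, 44 members were highest in ESC, 27 in N and 6 in PRL, whereas 34 were lowest in PRL, 29 in P, 10 in ESC and 4 in N.

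Promoters of the members were then searched for motifs, since known regulators of nuclear genes for mitochondria bind short sequences near the start. Of the 77 members, 68 had at least 1 start site in RefSeq windows of 250 bases before to 50 bases after the start (build GRCm38.p6), in 74 windows. Motifs of 4 regulators of nuclear genes for mitochondria or ribosomes were searched on both strands. The NRF1 motif, GCGC repeated after a gap of 2 bases, was found in 18.9% of the member windows, in 12.7% of windows of all genes tested and in 6.23% of all windows. The ETS motif CCGGAAG, bound by GABP, was found in 33.8%, 16.8% and 8.86% of the same 3 sets, the YY1 motif AAGATGG in 17.6%, 6.87% and 6.34%, and the E-box CACGTG, bound by MYC, in 9.46%, 10.0% and 7.15%. The first 3 motifs were thus more frequent in the member windows than in those of all genes tested, and the E-box was not. In windows of cytosolic ribosomal protein genes the NRF1 motif was found in 10.7%, the ETS motif in 36.0%, the YY1 motif in 16.0% and the E-box in 10.7%, so the ETS and YY1 motifs were about as frequent there as in the member windows. A match in a window is only a match of letters.

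The windows of members that the comparisons below turn on are given from 20 bases before the first motif to the base before the RefSeq start, with motifs in capitals, and were chosen after their values were seen. The NRF1 motif precedes Mrpl12 and Mrps21, which had the highest levels, at chr11:120484536-120484636 on the plus strand and chr3:95871515-95871625 on the minus strand. It was found in windows of 14 members, among them Mrpl17 and Mrpl57, whose means over the groups were 9.29 and 14.2 FPKM. The window of Mrpl52 held none, and a link of the motif with level was not tested.
Mrpl12: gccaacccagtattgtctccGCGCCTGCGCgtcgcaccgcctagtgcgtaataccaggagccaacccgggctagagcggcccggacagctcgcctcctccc
Mrps21: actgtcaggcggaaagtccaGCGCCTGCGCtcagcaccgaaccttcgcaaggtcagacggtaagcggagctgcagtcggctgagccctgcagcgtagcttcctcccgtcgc

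The ETS motif, on either strand, precedes Mrps27, Mrps22 and Mrpl22, which were among the members lowest in PRL relative to N, at chr13:99344718-99344785 (plus), chr9:98601680-98601710 (minus) and chr11:58171591-58171663 (plus). Over all members with a window, 14 of 25 with an ETS motif fell in PRL against N, and 28 of 43 without. The median log2 fold changes were -0.35 and -0.42, and the split was not tested.
Mrps27: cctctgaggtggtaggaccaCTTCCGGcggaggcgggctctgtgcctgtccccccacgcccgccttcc
Mrps22: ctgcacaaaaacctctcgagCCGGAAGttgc
Mrpl22: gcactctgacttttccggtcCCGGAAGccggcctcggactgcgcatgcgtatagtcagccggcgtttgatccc

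Mrpl52, also among the 3 highest by mean level, has a YY1 and an ETS motif in 1 window, at chr14:54426798-54426908 on the plus strand. Mrps11 and Mrpl46, a small and a large subunit gene, are transcribed away from each other from starts 42 bases apart, and the 43 bases at chr7:78783089-78783131 that run from 1 start to the other, read on the plus strand, hold none of the 4 motifs.
Mrpl52: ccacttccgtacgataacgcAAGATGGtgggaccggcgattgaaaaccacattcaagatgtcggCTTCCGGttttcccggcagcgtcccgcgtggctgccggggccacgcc
Mrps11 and Mrpl46: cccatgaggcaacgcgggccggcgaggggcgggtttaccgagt

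In primed cells most members were lower than in normal cells. In P, 59 of 77 members fell relative to N at an adjusted p under 0.05 (limma on log2(FPKM + 1), Benjamini-Hochberg over 13210 genes tested), against 21.9% of all genes tested. No member rose (0 of 77, also 0 at an unadjusted p under 0.05), against 24.0% of all genes. The median log2 fold change of the members was -0.42, that of all genes 0.02, and 71 members were below 0, against 46.0% of all genes. In 68 members both P libraries lay below both N libraries, which held for 38.1% of all genes, and in 1 member, Mrps34, both lay above, which held for 42.6%. The changes were modest in size. They ranged from -1.15 to 0.23, 28 members were below -0.5, and 1 fell past the thresholds of the study (a log2 fold change of 1 in size and an adjusted p of 0.001), against 4.1% of all genes, while 0 rose past them, against 4.54%.

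**Figure D2:**
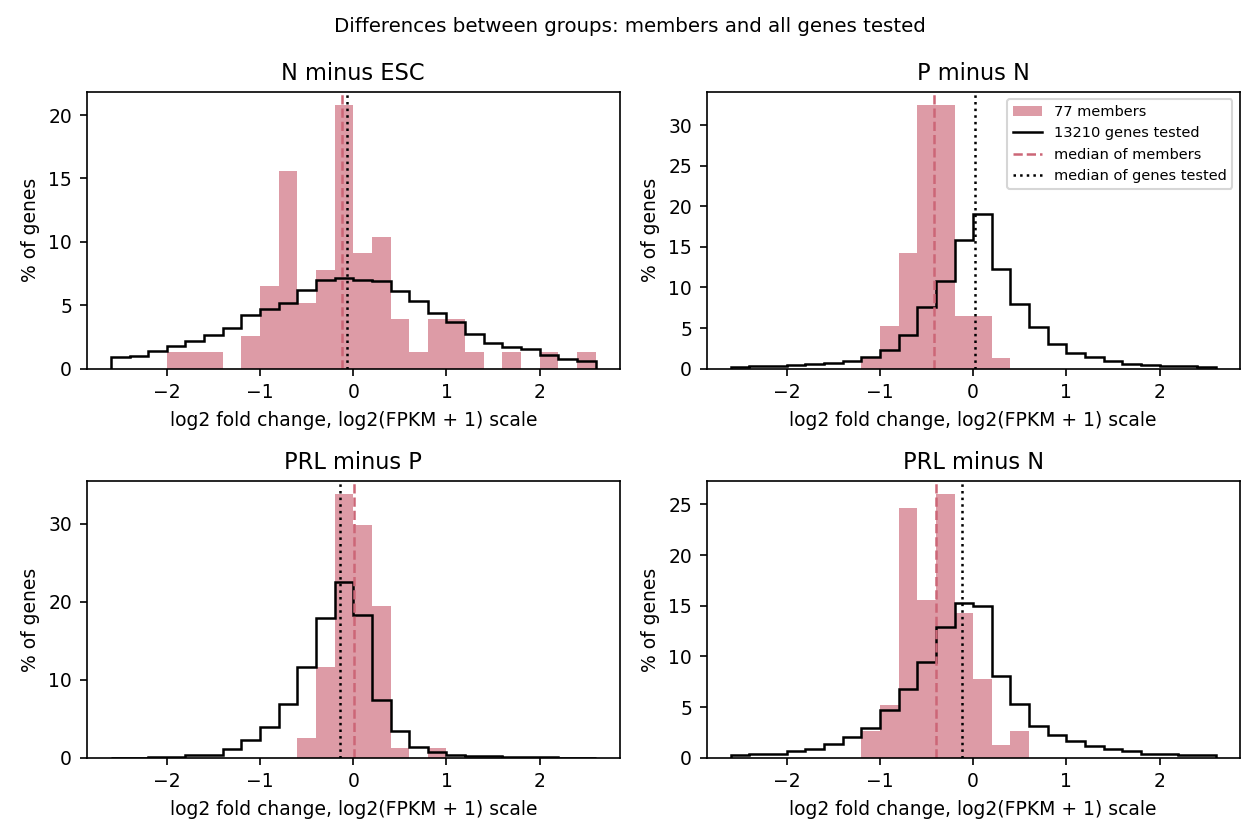
Distribution of log2 fold changes of log2(FPKM + 1) in the 4 comparisons, as percent of genes per bin. Filled bars are the 77 members, the outline is all 13210 genes tested, and vertical lines are the medians. The members lie to the left of all genes in P against N, with a median of -0.42 against 0.02, and around the median of all genes in N against ESC.

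The large subunit contributed 39 of its 50 members to those that fell, with a median of -0.39. Mrpl13, a core protein of the large subunit (ENSMUSG00000022370.13, chr15:55534094-55557748 on the minus strand, GRCm38), had 37.6 and 37.5 FPKM in P, against 83.5 and 85.7 FPKM in N. The libraries of the groups lay far apart, and the fall was the largest of all members (log2 fold change -1.15 ± 0.09 SE, limma adjusted p = 0.00014). An exon of Mrpl13 overlaps one of Mtbp on the opposite strand, and Mtbp averaged 2.54 FPKM in P and 7.82 FPKM in N. Since the library kit does not mark strand, reads of the overlap cannot be told apart. Mrpl12 had 201 and 211 FPKM in P, against 334 and 311 FPKM in N, without overlap (log2 fold change -0.64 ± 0.08 SE, limma adjusted p = 0.00085). Mrpl22, which lines the tunnel by which new proteins leave the ribosome, had 22.9 and 20.2 FPKM in P, against 37.9 and 33.0 FPKM in N (log2 fold change -0.69 ± 0.11 SE, limma adjusted p = 0.0027). In all 3 genes both P libraries lay below both N libraries.

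Of the small subunit, 19 of 26 members fell, with a median of -0.45. Mrps27, a protein with RNA-binding pentatricopeptide repeats (chr13:99344786-99415562, plus strand), had 7.55 and 7.52 FPKM in P, against 15.1 and 15.3 FPKM in N (log2 fold change -0.93 ± 0.08 SE, limma adjusted p = 0.00022). Mrps16, a protein with a bacterial counterpart whose mutation in humans causes a combined respiratory chain deficiency (chr14:20389304-20393634, minus strand), had 41.4 and 42.4 FPKM in P, against 77.5 and 79.3 FPKM in N. Its libraries did not overlap either (log2 fold change -0.89 ± 0.14 SE, limma adjusted p = 0.0026). Mrps22, found only in mitochondria and likewise a human disease gene (chr9:98588730-98601660, minus strand), had 8.53 and 7.35 FPKM in P, against 16.1 and 14.8 FPKM in N (log2 fold change -0.88 ± 0.11 SE, limma adjusted p = 0.00099). In each of the 3 genes the P libraries lay near one another and well under the N libraries. Mrps12, a protein of the decoding centre, had 28.3 and 28.6 FPKM in P, against 33.3 and 37.3 FPKM in N (log2 fold change -0.30, limma adjusted p = 0.022). Mrps25, among the lowest members, had 5.67 and 5.92 FPKM in P, against 8.17 and 8.69 FPKM in N (log2 fold change -0.47, limma adjusted p = 0.0076). Both were small changes between groups that did not overlap.

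Proteins with and without bacterial counterparts both had members that fell. Of the 46 with a counterpart 37 fell, with a median of -0.43, and of the 30 found only in mitochondria 21 fell, with a median of -0.36. Mrps36, outside the ribosome, had 22.6 and 23.4 FPKM in P, against 41.1 and 38.9 FPKM in N, and fell as well (log2 fold change -0.77 ± 0.12 SE, limma adjusted p = 0.0025). RefSeq lists 3 pseudogenes under its symbol, so its reads may be shared, and Mrpl23, Mrpl27 and Mrpl48 have 1 pseudogene symbol each.

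**Figure D3:**
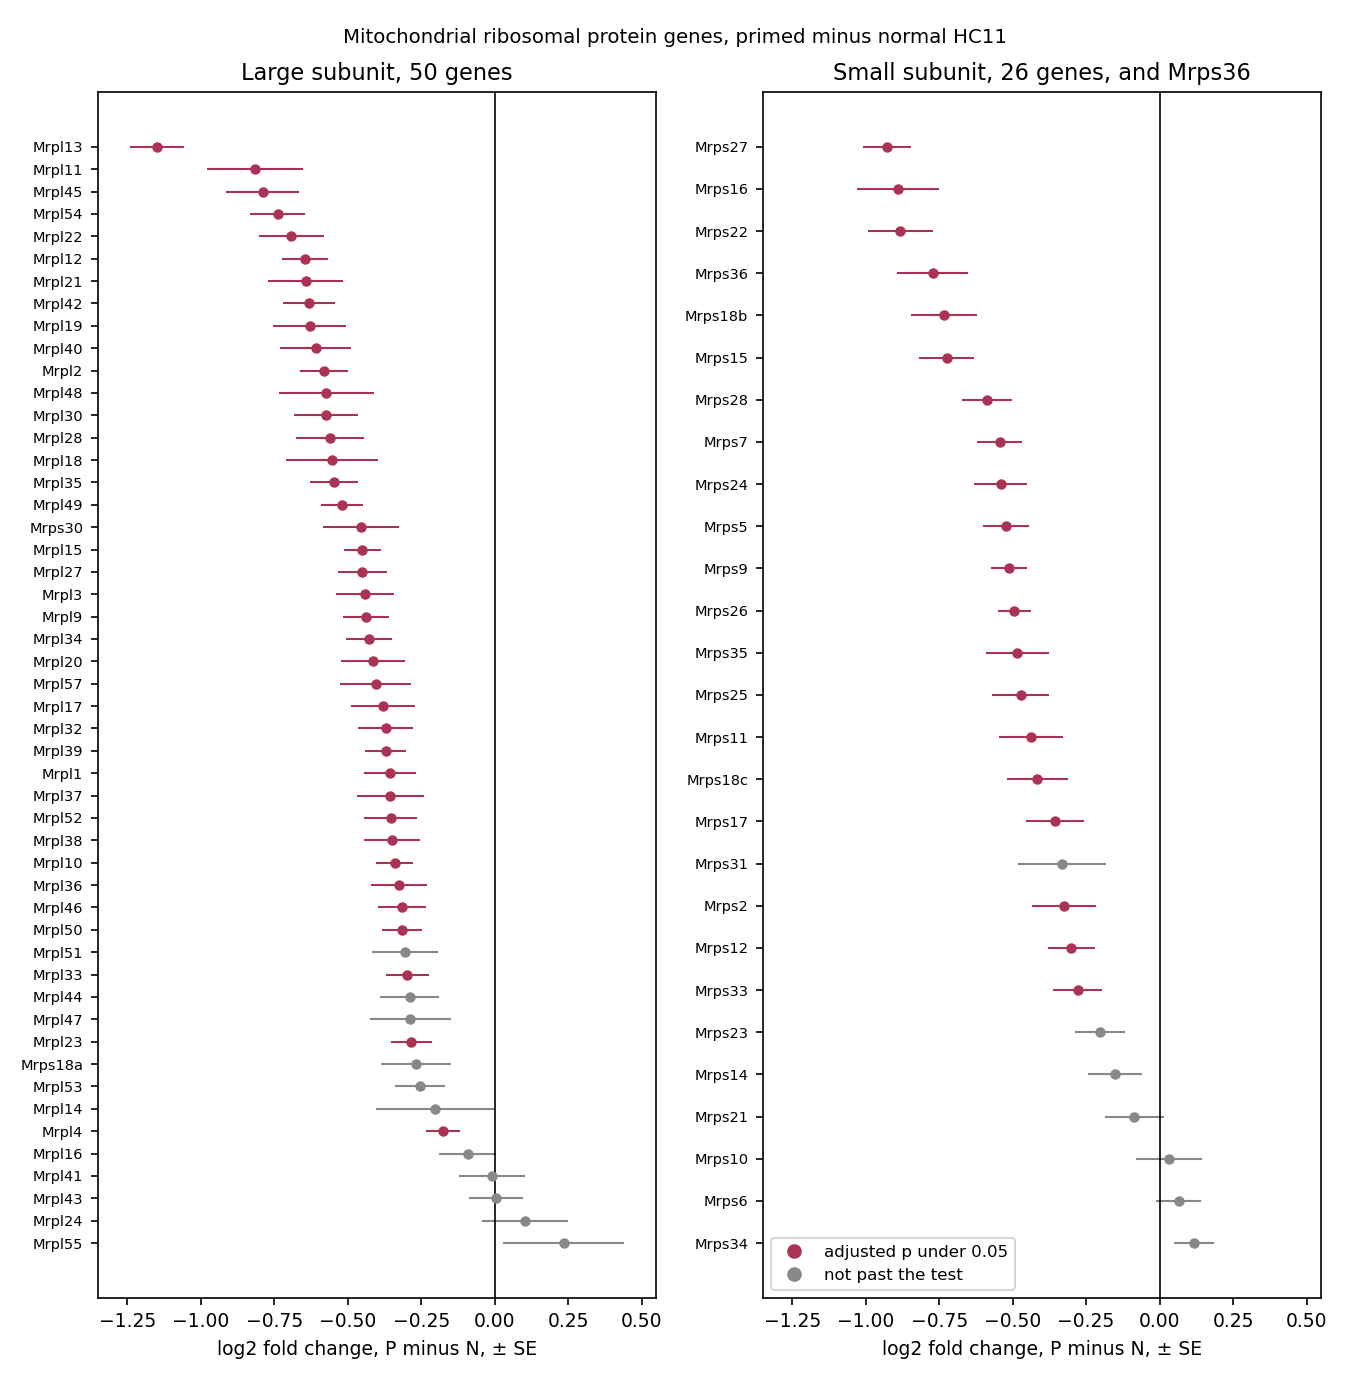
Log2 fold change of log2(FPKM + 1), P minus N, for all 77 members, with bars for the standard error and red points for an adjusted p under 0.05. The left panel holds the 50 large subunit genes and the right panel the 26 small subunit genes with Mrps36. Points to the left of 0 are lower in P, and no red point lies to the right of 0.

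Of the 77 members 18 were not called in this comparison. For 9 of them the log2 fold change was not below 0 in at least 1 setting, namely Mrpl16, Mrpl24, Mrpl41, Mrpl43, Mrpl55, Mrps10, Mrps21, Mrps34 and Mrps6, while the other 68 members stayed below 0 under every alternative tried. Mrpl14, at the interface of the subunits, had 85.6 and 87.3 FPKM in P, against 102 and 97.7 FPKM in N, and its log2 fold change was -0.20 ± 0.20 SE (limma adjusted p = 0.47). Mrps14, a core protein of the small subunit, had 35.6 and 36.4 FPKM in P, against 40.1 and 40.2 FPKM in N, without overlap but with a log2 fold change of only -0.15 (limma adjusted p = 0.23). The number that fell, 59 with all libraries, was 33 without P replicate 1, 35 without P replicate 2 and 39 without N replicate 2. The same 28 members fell with each of the 8 libraries left out in turn, and the same 50 fell under all 3 scalings of the libraries.

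Proliferation genes and cytosolic ribosomal proteins moved with the members in this comparison. All 15 proliferation genes fell, with a median of -2.96, and 61 of 83 tested cytosolic ribosomal protein genes fell, with a median of -0.51, against 21.9% of all genes that fell. Both medians were also below 0 under the other scalings, at -2.97 and -0.52 with median ratio scaling and at -3.02 and -0.23 with quantile normalization. Their part in the fall of the members was not tested.

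Between PRL and P, small sets of members changed in opposite directions. In PRL, 8 members rose and 6 fell relative to P, against 8.08% and 27.3% of all genes tested. The median log2 fold change was 0.01 for the members and -0.15 for all genes, 37 members were below 0, against 67.4% of all genes, and 60 members were above the median of all genes, against 50.0%. Both PRL libraries lay above both P libraries in 30 members and below in 23, against 22.6% and 57.3% of all genes. The median of all genes shifted with the scaling of the libraries, to 0.00 with median ratio scaling and 0.00 with quantile normalization. The members called higher were then 26 and 14, against 16.8% and 15.4% of all genes, and those called lower 0 (1 at an unadjusted p under 0.05) and 3, against 16.6% and 15.8%. All 8 members that rose were called higher under the 3 scalings, and 0 of the 6 that fell were called lower under all of them. With 1 of the 4 P and PRL libraries left out, 1 to 4 members rose and 1 fell, and with either ESC library left out 21 rose and 16 fell. Past the thresholds of the study, 0 members rose and 0 fell, against 0.689% and 1.44%. Beside this, 13 of 15 proliferation genes fell, with a median of -1.62, and 18 of 83 cytosolic ribosomal protein genes rose, with a median of 0.25, although with quantile normalization 7 rose and 5 fell. Their part in the changes of the members was not tested.

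The members that rose were Mrpl12, Mrpl23 and Mrpl54 of the large subunit and Mrps6, Mrps18b, Mrps24, Mrps28 and Mrps34 of the small subunit. Mrps18b, 1 of 3 mammalian paralogs of the bacterial protein S18, had 36.8 and 40.7 FPKM in PRL, against 19.7 and 20.9 FPKM in P. The rise was the largest of all members and was called with each library left out in turn (log2 fold change 0.90 ± 0.11 SE, limma adjusted p = 0.0021). Its N libraries, at 36.4 and 32.4 FPKM, lay close to the PRL libraries. An antisense transcript, Gm16279, overlaps Mrps18b and was not analysed here. Mrpl12 had 270 and 301 FPKM in PRL, against 201 and 211 FPKM in P (log2 fold change 0.47 ± 0.08 SE, limma adjusted p = 0.0056), a call that was lost without P replicate 1. Mrpl54, a large subunit protein found only in mitochondria, had 46.6 and 51.1 FPKM in PRL, against 36.6 and 37.2 FPKM in P (log2 fold change 0.39 ± 0.09 SE, limma adjusted p = 0.020), and was not called once any 1 of the 4 P and PRL libraries was left out. Mrps6, a small subunit protein with a bacterial counterpart, had 62.3 and 63.5 FPKM in PRL, against 45.3 and 50.2 FPKM in P (log2 fold change 0.39 ± 0.08 SE, limma adjusted p = 0.0092), a call lost without P replicate 1 or either PRL library. All 4 genes had groups without overlap. With 1 of the P or PRL libraries left out, the log2 fold changes lay between 0.39 and 0.55 for Mrpl12, between 0.33 and 0.46 for Mrpl54 and between 0.32 and 0.47 for Mrps6, so each rise kept its direction in these fits of fewer libraries, although calls were lost.

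The members that fell were Mrpl1, Mrpl33, Mrpl39 and Mrpl50 of the large subunit and Mrps9 and Mrps18c of the small subunit. Mrpl50, found only in mitochondria, had 10.5 and 10.7 FPKM in PRL, against 15.4 and 14.7 FPKM in P (log2 fold change -0.47 ± 0.07 SE, limma adjusted p = 0.0035). With median ratio scaling its change was -0.26 and no longer called (limma adjusted p = 0.058). Mrps18c, the paralog that takes the place of S18 in the small subunit, had 43.9 and 43.8 FPKM in PRL, against 58.2 and 58.0 FPKM in P (log2 fold change -0.40 ± 0.10 SE, limma adjusted p = 0.026). In both genes the PRL libraries were nearly equal and lay under both P libraries. Mrpl33, a small protein of the large subunit, had 87.3 and 88.4 FPKM in PRL, against 109 and 113 FPKM in P (log2 fold change -0.34 ± 0.07 SE, limma adjusted p = 0.014). Mrpl1 had 2.81 and 3.08 FPKM in PRL, against 4.20 and 3.81 FPKM in P (log2 fold change -0.34 ± 0.09 SE, limma adjusted p = 0.026). The calls of Mrps18c, Mrpl33 and Mrpl1 were lost with median ratio scaling, where their log2 fold changes were -0.18, -0.12 and -0.17, and that of Mrpl1 also with quantile normalization, at -0.02. They were also lost when any 1 of the P or PRL libraries was left out, although the log2 fold changes then stayed at -0.40 to -0.39 for Mrps18c, -0.36 to -0.31 for Mrpl33 and -0.40 to -0.29 for Mrpl1.

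The 3 paralogs of S18 had different values in this comparison. Mrps18b was higher in PRL than in P, Mrps18c was lower on the unscaled values, and Mrps18a, which sits in the large subunit, had 37.9 and 41.5 FPKM in PRL, against 34.2 and 34.4 FPKM in P (log2 fold change 0.20, limma adjusted p = 0.22). The differences between the paralogs were not tested.

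**Figure D4:**
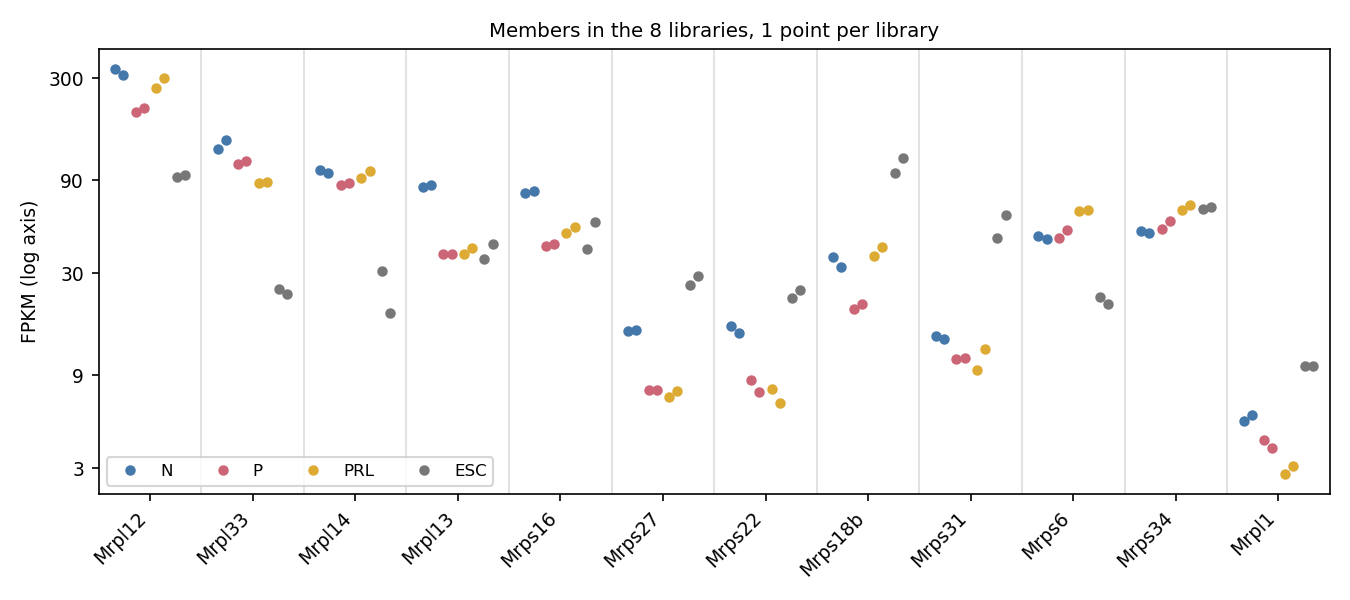
FPKM on a log axis of 12 members in the 8 libraries, in the order N, P, PRL and ESC, with 1 point per library. Mrpl13, Mrps16, Mrps27 and Mrps22 are lower in P than in N, and Mrpl13, Mrps27 and Mrps22 are as low in PRL. Mrps18b is lowest in P, and Mrpl33 and Mrpl14 are lowest in ESC.

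On the unscaled values, most members were lower in PRL than in N. In PRL, 49 members fell and 2 rose relative to N, against 34.2% and 19.1% of all genes, with a median log2 fold change of -0.40 for the members and -0.12 for all genes. Both PRL libraries lay below both N libraries in 62 members, against 51.4% of all genes, and above in 6, against 30.9%. With median ratio scaling, which moved the median of all genes to 0.00, 28 members fell and 6 rose, against 25.3% and 27.7% of all genes, and with quantile normalization 37 fell and 3 rose, against 27.3% and 26.7%. The large subunit had 31 of 50 members that fell and the small subunit 17 of 26. Past the thresholds of the study, 2 members fell (Mrpl13 and Mrps22) and 0 rose, against 8.0% and 5.47% of all genes, and 68 members were below 0, against 59.5%. All 15 proliferation genes fell here too, with a median of -4.74. Of 83 cytosolic ribosomal protein genes 25 fell, no larger a share than the 34.2% of all genes. With median ratio scaling 5 fell, against 25.3% of all genes, and with quantile normalization 44 fell, against 27.3%. The part of both lists in the fall of the members was not tested.

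The members with the largest falls were also lower in P than in N. Mrpl13 had 37.6 and 40.5 FPKM in PRL, against 83.5 and 85.7 FPKM in N (log2 fold change -1.10 ± 0.09 SE, limma adjusted p = 0.00011). Mrps22 had 7.63 and 6.50 FPKM in PRL, against 16.1 and 14.8 FPKM in N (log2 fold change -1.03 ± 0.11 SE, limma adjusted p = 0.00034). The groups of both genes lay far apart. Mrpl22 had 16.1 and 18.6 FPKM in PRL, against 37.9 and 33.0 FPKM in N (log2 fold change -0.99 ± 0.11 SE, limma adjusted p = 0.00040). Mrps27 had 6.94 and 7.43 FPKM in PRL, against 15.1 and 15.3 FPKM in N (log2 fold change -0.99 ± 0.08 SE, limma adjusted p = 0.00010). In PRL against P these 4 genes had log2 fold changes between -0.30 and 0.05 and were not called.

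The only members that rose were Mrps6 and Mrps34, both of the small subunit. Mrps6 had 62.3 and 63.5 FPKM in PRL, against 46.4 and 44.8 FPKM in N (log2 fold change 0.46 ± 0.08 SE, limma adjusted p = 0.0024). Mrps34, which is needed for a stable small subunit in mice, had 63.5 and 66.8 FPKM in PRL, against 49.7 and 48.1 FPKM in N (log2 fold change 0.41 ± 0.07 SE, limma adjusted p = 0.0025). Exons of Mrps34 overlap Nme3 on the same strand, which averaged 35.9 FPKM in PRL and 27.3 in N, and Mapk8ip3 on the opposite strand, which averaged 25.4 FPKM in PRL and 18.2 in N. Their part in the rise of Mrps34 was not tested. Exons of Mrps6 overlap Slc5a3, which averaged 1.45 FPKM in PRL and 2.21 in N.

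By group means over the HC11 cells, 35 members ran N, P, PRL from high to low and 32 ran N, PRL, P. The orders PRL, N, P and PRL, P, N had 4 members each, and the others 1 each. The comparisons share libraries, so their calls are given side by side. In 6 members (Mrpl12, Mrpl23, Mrpl54, Mrps18b, Mrps24 and Mrps28) a fall in P against N stood beside a rise in PRL against P. In 6 others (Mrpl1, Mrpl33, Mrpl39, Mrpl50, Mrps18c and Mrps9) a fall stood beside a fall.

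Against ESC, the members of N cells differed in both directions. In N, 20 members rose and 32 fell relative to ESC, against 36.1% and 41.6% of all genes, and the median log2 fold change was -0.12 for the members and -0.07 for all genes, with 48 members below 0, against 52.5% of all genes. The groups did not overlap in 24 members higher and 38 lower, against 40.5% and 46.1% of all genes. The calls in either direction thus made up no larger a share of the members than of all genes, most of which differed here. At the thresholds of the study 7 rose and 5 fell, against 15.6% and 20.7%. Of the large subunit 10 members rose and 21 fell, and of the small subunit 9 rose and 11 fell.

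The largest rises were those of Mrpl33, Mrpl14, Mrpl12 and Mrpl30, all of the large subunit. Mrpl33 had 130 and 144 FPKM in N, against 24.9 and 23.4 FPKM in ESC (log2 fold change 2.46 ± 0.07 SE, limma adjusted p = 4.3e-07). Mrpl14 had 102 and 97.7 FPKM in N, against 30.7 and 18.7 FPKM in ESC, where its libraries differed from each other (log2 fold change 2.01 ± 0.20 SE, limma adjusted p = 0.00010). Mrpl12 had 334 and 311 FPKM in N, against 94.0 and 95.4 FPKM in ESC (log2 fold change 1.76 ± 0.08 SE, limma adjusted p = 2.4e-06). Mrpl33 and Mrpl12 were thus high in all 3 states of HC11, and no HC11 library came near an ESC library. Mrpl30, another core protein, had 128 and 129 FPKM in N, against 45.7 and 57.0 FPKM in ESC (log2 fold change 1.32 ± 0.11 SE, limma adjusted p = 4.0e-05). Exons of Mrpl14 overlap Tmem63b on the opposite strand, which averaged 32.3 FPKM in N and 29.3 in ESC.

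The largest falls were those of Mrps31, Mrps18b, Mrps2 and Mrps30. Mrps31, found only in mitochondria (chr8:22411361-22429665, plus strand), had 14.3 and 13.8 FPKM in N, against 45.6 and 59.7 FPKM in ESC (log2 fold change -1.82 ± 0.15 SE, limma adjusted p = 4.0e-05). Mrps18b had 36.4 and 32.4 FPKM in N, against 97.6 and 118 FPKM in ESC (log2 fold change -1.61 ± 0.11 SE, limma adjusted p = 1.8e-05). Mrps2, a core protein of the small subunit, had 19.4 and 15.5 FPKM in N, against 50.5 and 47.1 FPKM in ESC (log2 fold change -1.44 ± 0.11 SE, limma adjusted p = 2.8e-05). All of them were lower in every HC11 library than in either ESC library. Mrps30, of the large subunit, had 20.2 and 26.4 FPKM in N, against 55.6 and 50.7 FPKM in ESC (log2 fold change -1.17 ± 0.13 SE, limma adjusted p = 0.00016).

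ESC replicate 1 held more of the fibroblast markers than ESC replicate 2. The feeder markers Col1a1 and Thy1 stood at 114 and 26.7 FPKM in ESC replicate 1 and at 13.3 and 6.71 FPKM in ESC replicate 2, and Lum was at 0 in both. Without ESC replicate 1, 18 members rose and 34 fell in N, and without ESC replicate 2, 24 rose and 31 fell. Over all 4 comparisons, 5 members were not called in any, namely Mrpl41, Mrpl43, Mrpl44, Mrps18a and Mrps23.

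Proteins that belong to the mitochondrial ribosome under other symbols also had lower genes in P. Of 7 subunits or bound proteins with other symbols, 3 fell in P against N, where 21.9% of all genes fell, with a median of -0.42. They were Dap3, a GTP-binding protein of the small subunit, Chchd1 of the small subunit and Gadd45gip1 of the large subunit. Gadd45gip1 had 11.3 and 11.7 FPKM in P, against 21.2 and 19.2 FPKM in N (log2 fold change -0.76 ± 0.08 SE, limma adjusted p = 0.00036), and Dap3 had 12.9 and 12.7 FPKM in P, against 20.8 and 21.4 FPKM in N (log2 fold change -0.68 ± 0.08 SE, limma adjusted p = 0.00078). Ict1, a peptidyl-tRNA hydrolase built into the large subunit, had 62.2 and 62.0 FPKM in P, within the range of 49.7 and 72.5 FPKM in N.

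Among 17 tested translation factors, 7 fell and 2 rose in P, against 21.9% and 24.0% of all genes, with a median of -0.18. Among those that fell were the elongation factors. Tufm, which brings tRNAs to the ribosome, had 34.2 and 34.5 FPKM in P, against 58.1 and 56.2 FPKM in N (log2 fold change -0.72 ± 0.07 SE, limma adjusted p = 0.00032). Tsfm, which recharges Tufm, had 14.6 and 14.9 FPKM in P, against 27.6 and 26.2 FPKM in N (log2 fold change -0.82 ± 0.06 SE, limma adjusted p = 0.00013). Slirp, which stabilizes mitochondrial mRNAs, had 40.1 and 37.3 FPKM in P and 66.5 and 63.5 FPKM in N, and it fell again in PRL, to 25.7 and 23.4 FPKM (PRL against P, log2 fold change -0.64, limma adjusted p = 0.0016). The factors that rose were Pdf, a peptide deformylase, and Mtif2, an initiation factor.

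Of 28 assembly and RNA maturation factors 4 fell and 3 rose in P, with a median of -0.15, and of 17 tested genes of mitochondrial DNA and its transcription 3 fell and 1 rose, with a median of -0.12. On the unscaled values, calls in either direction were thus less frequent in both lists than among all genes, of which 21.9% fell and 24.0% rose. With median ratio scaling 7 assembly factors and 3 genes of mitochondrial DNA and transcription fell, against 22.3% of all genes. With quantile normalization 8 and 6 fell, against 24.2%, so the reading of the falls depended on the scaling. Mterfd2, which recruits an RNA methyltransferase to the ribosome, had 12.5 and 12.3 FPKM in P, against 7.73 and 7.09 FPKM in N (log2 fold change 0.67, limma adjusted p = 0.00089). In PRL it had 5.83 and 5.35 FPKM, below both P libraries (log2 fold change -1.02, limma adjusted p = 0.00059). In PRL against P, 1 translation factor rose and 5 fell, 1 assembly factor rose and 6 fell, and 7 genes of mitochondrial DNA and transcription fell, against 8.08% of all genes that rose and 27.3% that fell. The share that fell was near that of all genes in the translation factors and below it in the assembly list. In the 17 genes of mitochondrial DNA and transcription it was above that of all genes. With median ratio scaling these counts were 2 and 4, 7 and 2, and 2 and 5, so the direction of the assembly list depended on the scaling. Transcripts of mitochondrial DNA itself were not analysed here.

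Regulators linked to nuclear genes of mitochondria, among them those that bind these motifs, changed at different steps. Of 15 tested, 3 fell and 0 rose in P against N, against 21.9% and 24.0% of all genes. The share that fell was thus near that of all genes. In PRL against P, 2 fell and 2 rose, against 27.3% and 8.08% of all genes, and the largest fall was that of Creb1 (log2 fold change -0.98). Myc, a transcription factor of growth and ribosome production, had 11.4 and 12.0 FPKM in P, against 26.4 and 26.4 FPKM in N (log2 fold change -1.11 ± 0.14 SE, limma adjusted p = 0.0010). In PRL it had 26.2 and 28.8 FPKM, above both P libraries and close to N (PRL against P, log2 fold change 1.17 ± 0.14 SE, limma adjusted p = 0.0018). Of the HC11 groups, Myc was thus lowest in P. Gabpa, the DNA-binding subunit of GABP, had 6.03 and 6.19 FPKM in PRL, against 11.7 and 11.7 FPKM in P (log2 fold change -0.84 ± 0.11 SE, limma adjusted p = 0.0023). In P against N its log2 fold change was -0.18 (limma adjusted p = 0.23). Gabpa was thus lowest in PRL. Yy1, which encodes the factor of the YY1 motif, had 35.4 and 35.8 FPKM in P, against 41.0 and 40.2 FPKM in N (log2 fold change -0.18, limma adjusted p = 0.035). This small fall was not called with median ratio scaling. Nrf1 had 6.61 and 5.95 FPKM in P, against 7.42 and 8.03 FPKM in N (log2 fold change -0.26, limma adjusted p = 0.071), and Hcfc1, a cofactor of GABP and YY1, had 16.8 and 16.4 FPKM in P, against 26.3 and 24.1 FPKM in N (log2 fold change -0.57 ± 0.14 SE, limma adjusted p = 0.017). In N against ESC, 4 of the 15 rose and 10 fell, against 36.1% and 41.6% of all genes, with a median of -0.51. Esrra, an orphan nuclear receptor of oxidative metabolism, was among those that rose, with 41.3 and 42.0 FPKM in N, against 14.7 and 11.5 FPKM in ESC (log2 fold change 1.61, limma adjusted p = 1.5e-05).

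Split by these motifs, the members that fell in P against N were 11 of 14 with an NRF1 motif and 40 of 54 without, 19 of 25 with an ETS motif and 32 of 43 without, and 12 of 13 with a YY1 motif and 39 of 55 without. All 5 members with an E-box fell, as did 46 of 63 without. No test was made of these splits.

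Many members start beside another gene transcribed in the opposite direction, and those neighbours changed in both directions in P, with more falls than rises. Of the 68 members with a RefSeq start, 24 had a tested gene with a divergent start within 1000 bases, among them the pair Mrps11 and Mrpl46, whose start regions are joined. The 22 neighbours that are not members had 10 that fell and 4 that rose in P against N, against 21.9% and 24.0% of all genes. Their median was -0.21, where all 77 members had a median of -0.42 and all genes tested 0.02. Mrps11 had 11.7 and 12.9 FPKM in P, against 16.0 and 18.1 FPKM in N (log2 fold change -0.44, limma adjusted p = 0.016). Mrpl46 had 16.2 and 16.4 FPKM in P, against 21.6 and 19.5 FPKM in N (log2 fold change -0.32, limma adjusted p = 0.019), so both genes of this pair fell.

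The neighbours with the largest falls were genes of cell division and DNA repair. Ska3, which binds kinetochores to the spindle and lies beside Mrpl57, had 1.60 and 1.60 FPKM in P, against 13.2 and 13.1 FPKM in N (log2 fold change -2.44, limma adjusted p = 1.9e-05), where Mrpl57 changed by -0.40. Ncapd2, a condensin subunit beside Mrpl51, had 6.39 and 6.64 FPKM in P, against 29.8 and 29.7 FPKM in N (log2 fold change -2.03, limma adjusted p = 2.5e-05), and Mrpl51, at -0.30, was not called. Eme1, a DNA repair endonuclease subunit beside Mrpl27, had 0.561 and 0.620 FPKM in P, against 5.23 and 5.47 FPKM in N (log2 fold change -2.00, limma adjusted p = 2.3e-05), where Mrpl27 changed by -0.45. In these 3 pairs the neighbour changed by several times the size of the member's change on the log2 scale.

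Other neighbours rose in P where the member fell. Klc4, a kinesin light chain beside Mrpl2, had 21.3 and 21.8 FPKM in P, against 13.8 and 13.4 FPKM in N (log2 fold change 0.63, limma adjusted p = 0.00035), while Mrpl2 fell by 0.58 on the log2 scale. Gga3, an adaptor of vesicle transport beside Mrps7, had 21.0 and 20.3 FPKM in P, against 14.3 and 13.2 FPKM in N (log2 fold change 0.55, limma adjusted p = 0.0015), while Mrps7 fell by 0.54. Cyb5rl beside Mrpl37 rose as well, by 0.71 (limma adjusted p = 0.0015), while Mrpl37 fell by 0.36. The groups of libraries did not overlap in Klc4 and Gga3.

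**Figure D5:**
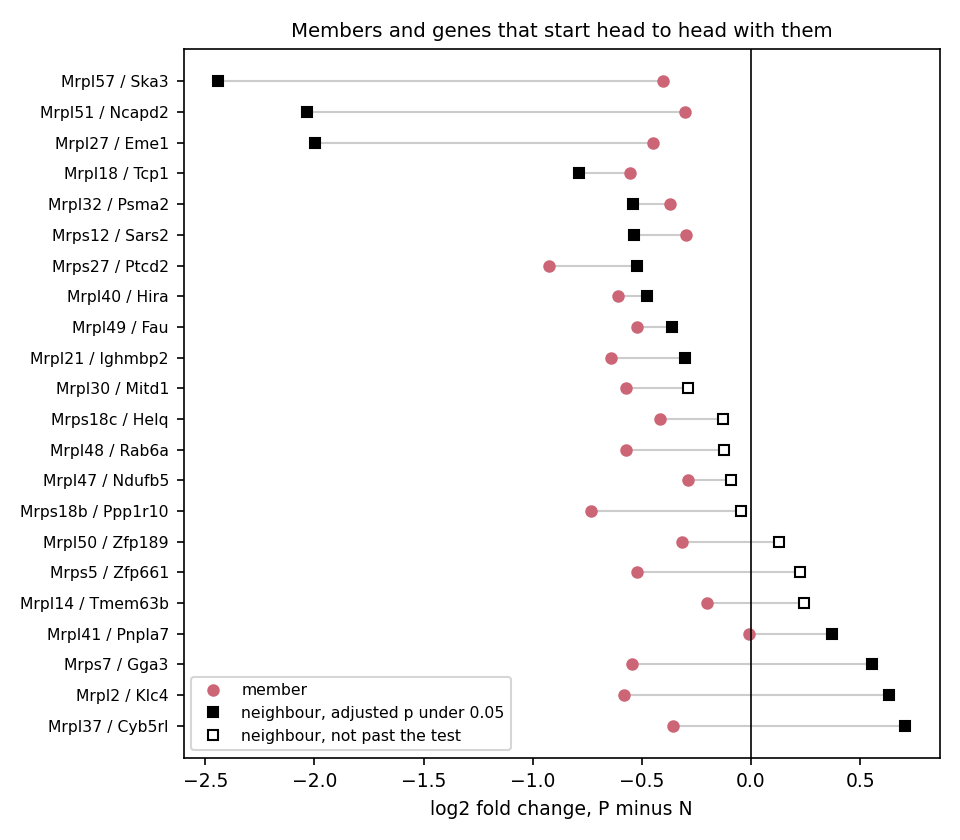
Log2 fold change of log2(FPKM + 1), P minus N, for 22 members and for the gene that starts within 1000 bases on the other strand, with 1 pair per row. Neighbours spread from -2.44 (Ska3) to 0.71 (Cyb5rl), while their members stay in a narrower range below or near 0.

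Members that share exons with other genes and members that do not both fell in this comparison. Exons of 32 members overlap those of another gene, of which 23 overlap a protein coding gene and 20 such a gene on the opposite strand. Of the 23, 15 fell in P against N, with a median of -0.44, and of the 45 without any overlap 36 fell, with a median of -0.38.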

How the data were processed

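The authors extracted total RNA, removed ribosomal RNA and prepared paired-end libraries with a kit that does not mark strand. They mapped the reads to mm10 with TopHat2, allowing 2 mismatches, and counted them with featureCounts of Subread. The gene annotation and the handling of reads that overlap several genes are not given in the sources used here. The deposited table holds FPKM per gene and library, which the authors scaled to exon length and library depth, and 0 columns of it were left unused. The authors' 4 comparison tables (mean counts, fold changes and p-values from DESeq2) were not used. The depth, 11938392 to 33916913 fragments per library, was taken from the commonest step of the FPKM of short genes. A length of up to 30000 bases was then searched for each of the 16933 genes above 0 in at least 3 libraries. For 16930 of them a length gave whole numbers of fragments within 0.02 of a fragment. Intervals from this depth would cover counting error only.

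Genes that reached an FPKM of 1 in 2 or more of the 8 libraries were kept, 13210 of 24062. They were tested in R 4.3.3 with limma 3.58.1, with a robust, trended eBayes step that uses statmod 1.5.0. The values were log2(FPKM + 1), a scale that understates changes of low genes, and the model had 1 mean per group (4 residual and, by the median, 2.57 prior degrees of freedom). Benjamini-Hochberg adjustment ran over the genes tested, and calls were made at an adjusted p under 0.05. The fit was tested on simulated data with a single spread for all genes and changes in a small set of genes. That test does not bear on how the calls depend on the scaling, and no result here rests on it. No paired fit was the main one, since libraries with the same number deviated from their group means with correlations of only -0.0275 to 0.0824 across genes.

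Members and lists were chosen with earlier results of these data known. Values per library are given for the 4 called members with the largest rise and fall in each comparison, and for the 3 highest and 3 lowest by mean, with Mrpl41 as a range. They are also given for most members with known roles or paralogs, up to 4 called genes per list, and some of the regulators. Other named members, and the neighbours and promoters, were chosen after their values were seen. Alternatives were a replicate block, a pseudocount of 0.1, scaling by median ratios or by quantiles, a low filter at 5 FPKM or none, the compared groups alone, the thresholds of the study, and leaving out each library. Promoter windows and pseudogene symbols came from RefSeq (GRCm38.p6) and gene positions from GENCODE on GRCm38. Python 3.11.15, pandas 2.3.3, numpy 2.4.6 and matplotlib 3.10.9 were used.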

Additional observations from a re-analysis of the deposited data

How the results depend on the processing

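At the thresholds of the study (a log2 fold change of 1 in size and an adjusted p of 0.001), limma called 7 members higher and 5 lower in N against ESC, 0 higher and 1 lower in P against N, 0 and 0 in PRL against P, and 0 and 2 in PRL against N. With median ratio scaling, 26 were higher and 0 lower in PRL against P, and 6 higher and 28 lower in PRL against N. With quantile normalization the counts in PRL against P were 14 and 3, and in a fit of these groups alone 25 and 17. With each library left out in turn, the members called ranged from 15 to 24 higher and 28 to 34 lower in N against ESC, from 33 to 67 lower in P against N, from 1 to 21 higher and 1 to 16 lower in PRL against P, and from 34 to 57 lower in PRL against N. For PRL against P the 1 higher came without P replicate 1, 2 without PRL replicate 2, 3 without PRL replicate 1 and 4 without P replicate 2, and 21 higher and 16 lower came without either ESC library, whose absence also lowers the number of genes tested. A group left with 1 library is assumed to vary like the others. Whether the replicate numbers pair the samples is not known, and low correlations across genes cannot settle it. With a replicate block the counts were 20 higher and 31 lower in N against ESC, 0 and 56 in P against N, 8 and 5 in PRL against P, and 2 and 47 in PRL against N. The median over the members was -0.05 to 0.09 in PRL against P with 1 library left out, 0.23 with median ratio scaling and 0.15 with quantile normalization. For PRL against N these scalings gave -0.19 and -0.27, and quantile normalization gave -0.06 in N against ESC. Of 26 changes of single named members, chosen for their size, 22 kept their call with median ratio scaling and 25 with quantile normalization. The calls lost were in PRL against P, where leaving out P or PRL libraries lost further calls, as given above. Under all alternatives 0 changed sign. The cause of these shifts was not tested.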
